A study of Mus musculus with 4 samples.

Results

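The genes described here encode the mitochondrial carrier family, SLC25, together with the uncoupling proteins Ucp1, Ucp2 and Ucp3, which belong to the same family. They were chosen as all array probes whose accession is paired with a mouse gene symbol that begins with Slc25a and a number, or with one of the 3 Ucp symbols. The gene table holds 51 such genes, 1 of them a pseudogene, of which 46 had at least 1 probe and 33 were bright enough to be tested, among 14995 tested features. The RNA came from intact ureteric buds of the mouse kidney, the epithelial outgrowths that branch into the collecting ducts. Buds lay in matrix gel on an insert in DMEM/F12 that held GDNF (100 ng/ml), HGF (100 ng/ml) and 10% serum, in both groups. The treated group then received angiotensin II (AngII, 1e-05 M), the peptide hormone that raises blood pressure through its AT receptors, for 6 h, and the control group received media alone for 6 h. The labels name no strain, age or genotype of the mice. The comparison asks which transcripts differ in buds exposed to AngII, and here which of the mitochondrial carriers do.

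SLC25 proteins are small carriers, nearly all of the inner mitochondrial membrane, each of which exchanges or imports particular solutes. ADP/ATP and phosphate carriers feed ATP synthesis, the carriers of citrate, malate, oxoglutarate, aspartate and glutamate connect the cytosol with the citric acid cycle, and others bring in cofactors, iron, glycine or acylcarnitines. In kidney tubules, which depend on mitochondria for transport work, these exchanges supply the energy for ion pumping, and uncoupling proteins let ions or metabolites cross without ATP synthesis.

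The labels number 2 pairs of AngII and media RNA and describe these as biological replicates, but do not say which animals or cultures they came from. Each pair was read on 2 two-colour arrays, with AngII in the red dye (Cy5) on one and in the green dye (Cy3) on the other, so that 4 arrays were read, and all values below are log2 ratios of AngII over media unless stated. The arrays hold 41174 probes, and the number well above background ran from 19028 to 21922 over the channels. Across features the ratios of the numbered pairs correlated at r = 0.98, and the SD of the half-difference between them was 0.04, which was 1.02 times that of the contrast holding array noise alone. A limma test of the difference between the pairs called 0 of 14995 features after adjustment, and 771 had an unadjusted p under 0.05. The pairs therefore differed by no more than the array noise and, against that label, were counted as 1 sample of each group. In the main fit, limma p-values and standard errors describe the spread between 2 averages, each over the dye-swapped arrays of 1 numbered pair. They leave out the difference between dye orientations. All p-values rest on hybridisations of these RNAs only, and no difference is counted as checked in an independent pair. In bulk RNA, fewer cells of a type and less RNA per cell cannot be told apart.

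Among the 33 tested carrier genes, as many were higher under AngII as were lower. At a Benjamini-Hochberg adjusted p under 0.05 in limma 14 rose, 14 fell and 5 were not called. Of those that fell, Ucp1 passed the brightness filter only through the media channel, so its call is no support for a fall. Over all features 77.3% were called, 39.1% higher and 38.1% lower, so the share of carriers called, 84.8%, lay near the background. Counts of the substrate groups and marker lists below are to be read against these shares. With the replicate number as a block on the 4 arrays, 13 carriers were called, 7 higher and 6 lower, the latter with Ucp1. Of all features 31.0% were called with the block, and the 15 lost calls are stated with their genes below. The median ratio of the carriers was 0.02, against 0.00 over all features, and the median size of the ratio was 0.24, against 0.19. In all, 3 carriers (9.09%) differed at least 1.5-fold, against 10.9% of all features: Slc25a25 and Slc25a38 were lower and Slc25a46 was higher. Without replicate 1 that count was 5, with Slc25a5 and Slc25a47 added, and it was 7 with processed signals and 6 with AngII in Cy3 alone.

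**Figure D1:**
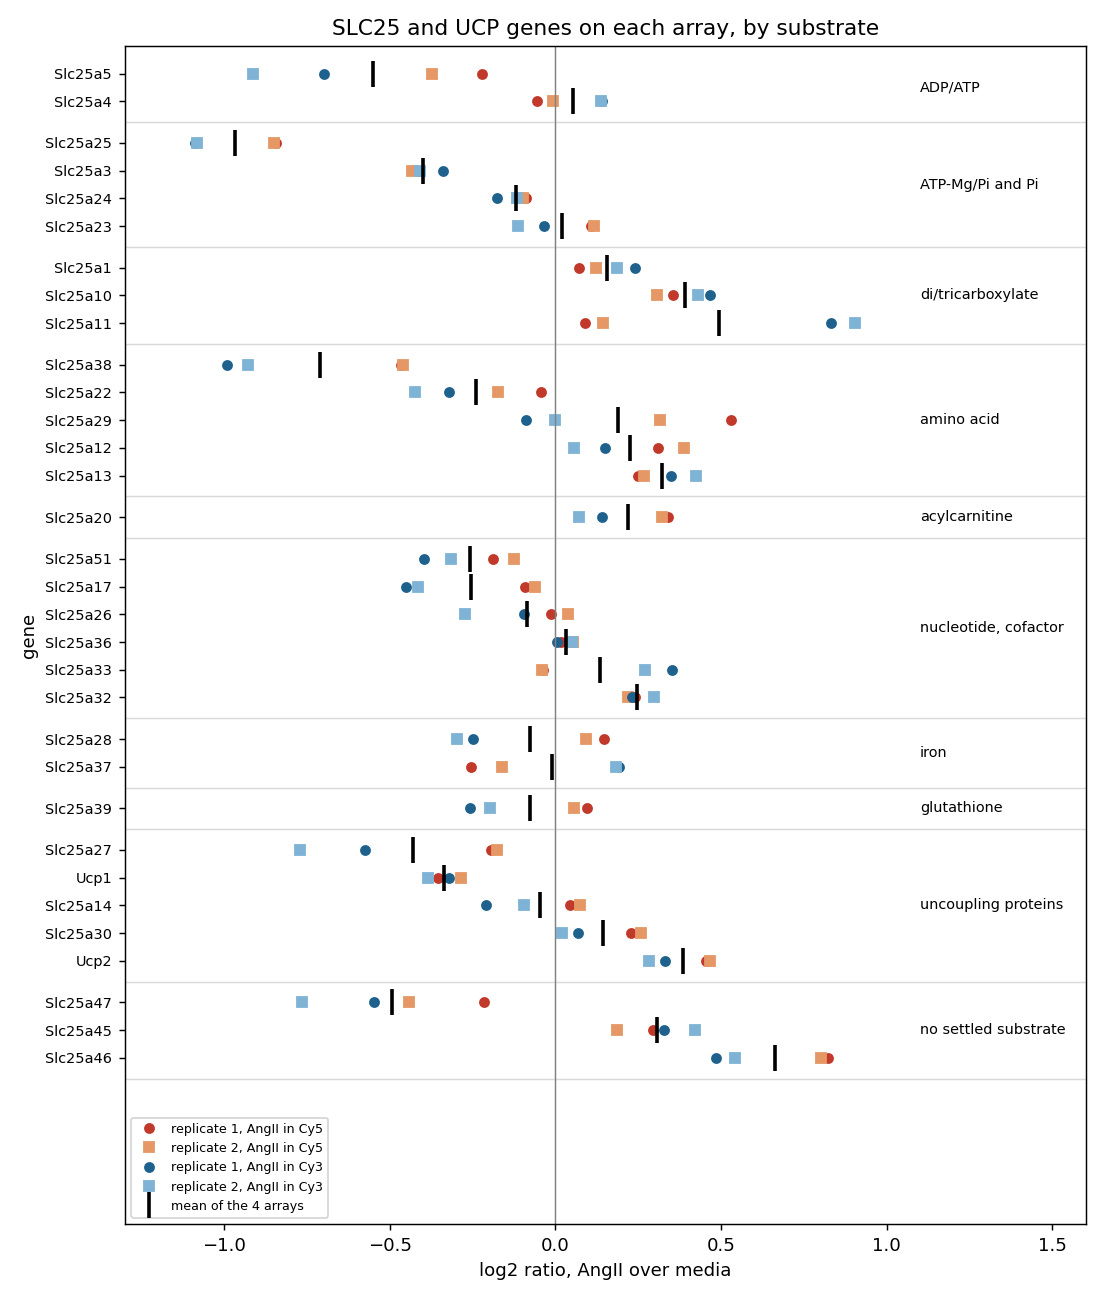
Log2 ratio of AngII over media (x axis) of 32 of the 33 tested carrier genes (y axis, grouped by substrate), with 1 point for each of the 4 arrays and a black bar at their mean. Slc25a25 lies lowest at -0.97 and Slc25a46 highest at 0.66, and the 3 di- and tricarboxylate carriers lie above 0 on every array.

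The carriers that move adenine nucleotides and phosphate held the largest decrease. Slc25a25, a calcium-regulated carrier that exchanges ATP-Mg for phosphate, had -0.84 and -0.85 with AngII in Cy5 and -1.09 and -1.08 with AngII in Cy3. It was thus lower on all 4 arrays, with a mean of -0.97 (SE 0.034), or 1.95-fold lower under AngII (limma adjusted p = 6.60e-20). A second probe of this gene gave -1.02, and the dimmest of the 3 gave -0.35, so the size of the fall depended on the probe while the sign did not. Of the windows before its annotated starts, the 250 bases at chr2:32424067-32424316 (minus strand, GRCm38.p6, RefSeq) are shown because they hold a cAMP response element, TGACGTCA, in capitals, which begins 150 bases before the start.
Slc25a25: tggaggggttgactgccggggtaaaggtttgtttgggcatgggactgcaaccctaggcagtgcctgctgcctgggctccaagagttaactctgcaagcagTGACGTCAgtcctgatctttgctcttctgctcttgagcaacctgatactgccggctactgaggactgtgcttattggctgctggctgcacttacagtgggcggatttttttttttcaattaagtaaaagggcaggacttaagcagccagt
The letters of this element, on either strand, stood in 2 of the 49 windows of the carrier genes, in Slc25a25 and Slc25a36, and in 1.55% of all 32851 promoter windows of that length. Slc25a36 had a ratio of 0.03 and was not called. A match describes the letters only, and which start was used in these buds was not measured.

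The other ATP-Mg/phosphate carriers did not follow in size. Slc25a24 fell by 0.12 at its brightest probe, with all 4 arrays between -0.18 and -0.09. The other, dimmer probe of Slc25a24 gave -0.08, from -0.45 and -0.36 with AngII in Cy5 and 0.31 and 0.18 with AngII in Cy3. Slc25a23 had 0.02 (limma adjusted p = 0.618) with arrays on both sides of 0. Against the brightest probe of Slc25a24 the ratio of Slc25a25 was lower by 0.75 to 0.97 on every array. The call on Slc25a24 was lost with Agilent's processed signals, with median centring, with the block, and with AngII in Cy5 alone. Slc25a3, the phosphate carrier that brings phosphate to the ATP synthase, had -0.42 and -0.43 with AngII in Cy5 and -0.34 and -0.41 with AngII in Cy3. These 4 values lay close together, and the mean of -0.40 was 1.32-fold lower under AngII (adjusted p = 2.41e-11). Slc25a41, the remaining relative, was not well above background on any array.

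The ADP/ATP carriers export ATP from the matrix in exchange for ADP, and the pair measured here did not move alike. Slc25a5, the form of proliferating and epithelial tissues, had -0.22 and -0.37 with AngII in Cy5 and -0.70 and -0.91 with AngII in Cy3. All 4 arrays showed it lower, by a mean of 0.55 or 1.47-fold (adjusted p = 2.58e-13), but the dye orientations differed widely. Slc25a4, the form best known from heart and skeletal muscle, had -0.06 and -0.01 with AngII in Cy5 and 0.14 on both other arrays. Its mean of 0.05 was not called (adjusted p = 0.149), its other probe gave 0.12, and it was called higher with processed signals, median centring, the mean of its probes, AngII in Cy3 alone and in the authors' deposited table. The ratio of Slc25a4 exceeded that of Slc25a5 on all 4 arrays, by 0.17 to 1.05, a difference for which no test was run. These genes are close in sequence and Slc25a5 has processed copies in the genome, so cross-hybridisation between their probes cannot be told apart from their own signal. Slc25a31, the testis form, was not well above background on any array. Skeletal muscle markers gave a summed intensity of 1136 to 1398 in the AngII channels and 818 to 910 in the media channels, with 4 of 8 markers tested and Myh8 never above background, and their part in the Slc25a4 values was not tested.

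All 3 tested carriers of di- and tricarboxylates rose. Slc25a10, which exchanges malate or succinate for phosphate, had 0.35 and 0.31 with AngII in Cy5 and 0.47 and 0.43 with AngII in Cy3, a mean of 0.39 or 1.31-fold (adjusted p = 3.83e-11). Slc25a11, the oxoglutarate/malate carrier of the malate-aspartate shuttle, had 0.09 and 0.14 with AngII in Cy5 but 0.83 and 0.91 with AngII in Cy3. Its mean of 0.49 (1.41-fold, adjusted p = 3.09e-13) was therefore carried by arrays of a single dye orientation, and the call was lost with the block (limma adjusted p = 0.108). Slc25a1, which exports citrate for fatty acid and sterol synthesis, rose by 0.15, with 0.07 and 0.12 with AngII in Cy5 and 0.24 and 0.18 with AngII in Cy3, a call lost with the block (adjusted p = 0.143). The median of the group was 0.39, and 0.12 with AngII in Cy5 alone. Slc25a21, the oxodicarboxylate carrier, was above background in 1 media channel only and was not tested.

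The aspartate/glutamate carriers, which complete the malate-aspartate shuttle, rose too. Slc25a13 had 0.25 and 0.27 with AngII in Cy5 and 0.35 and 0.42 with AngII in Cy3, a mean of 0.32 (1.25-fold, adjusted p = 1.83e-09). Slc25a12 had 0.31 and 0.39 with AngII in Cy5 and 0.15 and 0.06 with AngII in Cy3, a mean of 0.23 (adjusted p = 9.24e-07), and was not called with the block or with AngII in Cy3 alone. Neither of the 2 had the higher ratio on all arrays. Slc25a20, which brings acylcarnitines in for beta-oxidation, had 0.34 and 0.32 with AngII in Cy5 and 0.14 and 0.07 with AngII in Cy3, a mean of 0.22 (1.16-fold, adjusted p = 1.84e-06), and was not called with the block (adjusted p = 0.101).

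Promoter windows are shown for those of the carboxylate and aspartate/glutamate carriers in which a searched motif was found. The windows are Slc25a1 at chr16:17928220-17928469, Slc25a11 at chr11:70647040-70647289 and Slc25a13 at chr6:6217174-6217423, all on the minus strand of GRCm38.p6 (RefSeq). Capitals mark an E-box (CACGTG) or the AP-1-like letters TGANTCA, where N was searched as any base.
Slc25a1: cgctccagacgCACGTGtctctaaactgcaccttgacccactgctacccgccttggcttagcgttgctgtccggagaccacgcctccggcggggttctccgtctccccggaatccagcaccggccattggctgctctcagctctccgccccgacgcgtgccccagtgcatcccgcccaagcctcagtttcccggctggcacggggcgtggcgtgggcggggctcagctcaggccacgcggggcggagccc
Slc25a11: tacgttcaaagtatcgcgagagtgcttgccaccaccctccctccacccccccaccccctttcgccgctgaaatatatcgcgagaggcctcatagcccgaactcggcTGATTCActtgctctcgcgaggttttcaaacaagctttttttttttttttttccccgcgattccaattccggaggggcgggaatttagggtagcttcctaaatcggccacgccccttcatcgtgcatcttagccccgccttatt
Slc25a13: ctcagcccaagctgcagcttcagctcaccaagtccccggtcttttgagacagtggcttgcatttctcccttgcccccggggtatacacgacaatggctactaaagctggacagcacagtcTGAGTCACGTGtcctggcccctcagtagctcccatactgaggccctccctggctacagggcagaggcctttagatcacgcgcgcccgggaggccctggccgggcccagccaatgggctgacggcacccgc
The AP-1-like letters are TGATTCA in Slc25a11 and TGAGTCA in Slc25a13, where they overlap the E-box. On either strand, an E-box stood in 8 of the 49 windows of carrier genes (16.3%), from 7 genes and with 1 site shared by 2 overlapping Slc25a14 windows, against 6.02% of all windows. The AP-1-like letters, with any base at N, stood in 2 windows (4.08%), against 6.75% of all. Of the tested genes with an E-box, Slc25a1, Slc25a13 and Slc25a33 were called higher, of which Slc25a13 alone kept the call with the block, while Slc25a14 and Slc25a36 were not called. The palindromic NRF1 site and the amino acid response element TGATGNAA stood in 0 of the 49 windows, against 0.782% and 3.45% of all. RefSeq windows were at hand for 39 of the carrier genes, 26 of them tested.

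The remaining amino acid carriers moved in both directions. Slc25a38, which takes glycine into mitochondria for heme synthesis, had -0.47 and -0.46 with AngII in Cy5 and -0.99 and -0.93 with AngII in Cy3. It was lower on all 4 arrays, by a mean of 0.71 or 1.64-fold (adjusted p = 6.92e-17). Slc25a22, a glutamate carrier, fell by 0.24, with arrays from -0.42 to -0.04, a call lost with the block (adjusted p = 0.0960) and with AngII in Cy5 alone. Slc25a29, a carrier of basic amino acids, had 0.53 and 0.31 with AngII in Cy5 and -0.09 and -0.00092 with AngII in Cy3, and another probe gave -0.17, so its call as higher (mean 0.19) rested on 1 dye orientation and 1 probe and was lost with the block (adjusted p = 0.318). Slc25a18 and Slc25a44, carriers of glutamate and of branched-chain amino acids, were too dim to test, and Slc25a15 and Slc25a2, the ornithine carriers, had no probe.

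Erythroid cells use mitochondrial glycine and iron for heme, and their markers were higher under AngII, whereas the carriers of this route were not. Slc25a37 (mitoferrin 1), the iron carrier of erythroid precursors, had -0.26 and -0.16 with AngII in Cy5 and 0.19 and 0.18 with AngII in Cy3. Its arrays lay on both sides of 0 and the mean of -0.01 was not called (adjusted p = 0.793), while its other, dimmer probe gave -0.41 and was lower on all 4 arrays. Slc25a28 (mitoferrin 2), the iron carrier of other tissues, had 0.15 and 0.09 with AngII in Cy5 and -0.25 and -0.30 with AngII in Cy3, and its mean of -0.08 passed narrowly (adjusted p = 0.0434). Slc25a39, which imports glutathione, had 0.10 and 0.05 with AngII in Cy5 and -0.26 and -0.20 with AngII in Cy3, with a mean of -0.08 (adjusted p = 0.0445). The other, dimmer probe of Slc25a39 gave -0.28 and was lower on all 4 arrays (-0.37 to -0.18). The calls on Slc25a28 and Slc25a39 were lost with processed signals, median centring, no filter on dim probes and the block, and in the authors' deposited table, and their sign turned with AngII in Cy5 alone. The other glutathione carrier, Slc25a40, was never above background. Of the 15 erythroid markers 9 were tested, 8 rose and 1 was not called, led by Hbb-bt at 2.78 and Hbb-bh1 at 2.58. Their summed intensity was 33485 to 41369 in the AngII channels and 6912 to 8202 in the media channels. Epb42 and Gata1 were among the markers never above background, and the part of erythroid RNA in the values of Slc25a37 and Slc25a38 was not tested.

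Nucleotide and cofactor carriers showed small ratios of either sign, with 3 of 7 tested members higher, 3 lower and a median of 0.03. Slc25a32, which imports folate, rose by 0.25 and was higher on all 4 arrays. Slc25a33, a pyrimidine nucleotide carrier, had a mean of 0.14, from -0.04 on both arrays with AngII in Cy5 and 0.35 and 0.27 on the others. It was called higher, but not with the block (adjusted p = 0.358), with processed signals or in the authors' deposited table. The other, dimmer probe of Slc25a33 gave 0.25 and was higher on all 4 arrays (0.20 to 0.34). Slc25a51, the NAD carrier of human cells, fell by 0.26, with arrays from -0.40 to -0.12, a call lost with the block (adjusted p = 0.0611). Slc25a17, a carrier of the peroxisome rather than the mitochondrion, fell by 0.26 at the brightest of its 3 probes, whereas the others gave 0.00 and 0.36, so its direction depended on the probe, and the call was lost with the block (adjusted p = 0.124). Slc25a26, the S-adenosylmethionine carrier, had -0.09 with arrays from -0.27 to 0.04 (adjusted p = 0.0258), a call lost with the block, among other alternatives, and a sign that turned with AngII in Cy5 alone. Slc25a16 and Slc25a42, linked to coenzyme A, were never above background.

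Among the uncoupling proteins and their relatives, Ucp2 and the brain form Slc25a27 went in opposite directions. Ucp2, the widely expressed member found in many epithelial and immune cells, had 0.46 and 0.47 with AngII in Cy5 and 0.33 and 0.28 with AngII in Cy3, a mean of 0.38 or 1.31-fold (adjusted p = 4.62e-11). Its other bright probe gave 0.11, and its remaining probe was never above background. Slc25a27 had -0.19 and -0.18 with AngII in Cy5 and -0.58 and -0.77 with AngII in Cy3, a mean of -0.43 (adjusted p = 8.26e-12), and was not called with the block (adjusted p = 0.0661). Slc25a30, described in kidney, rose by 0.14, with arrays from 0.02 to 0.26, a call lost with the block (adjusted p = 0.214) and with AngII in Cy3 alone, and Slc25a14 had -0.05 (adjusted p = 0.231). Ucp3, the muscle form, was never above background.

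Ucp1, the thermogenic uncoupling protein of brown fat, was well above background in the media channel of all 4 arrays and in the AngII channel of none. The level in AngII is therefore known only as a bound, which set Ucp1 at least 1.24-fold lower under AngII. Mean log2 intensities after scaling between arrays were 6.06 in AngII and 6.39 in media (limma adjusted p of the fitted ratio = 6.64e-10). Since Ucp1 passed the filter only through media, neither that p nor the bound supports a fall. The bound sets the media mean against, on each array, the higher of the AngII value and a floor. That floor is the lowest AngII signal well above background of any probe on the array, not a detection limit of the Ucp1 probe. Both means lay near background. Of 7 brown fat markers 4 were tested, and 3 rose, led by Fabp4 at 1.11 and Cox7a1 at 0.48, while 1 fell. Their summed intensity was 2531 to 2774 in the AngII channels and 1556 to 1811 in the media channels, Elovl3 was never above background, and their part in the Ucp1 signal was not tested.

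Of the members without a settled substrate, Slc25a46 had the largest rise of the family. This protein of the outer membrane takes part in mitochondrial fusion and fission. It had 0.82 and 0.80 with AngII in Cy5 and 0.48 and 0.54 with AngII in Cy3, a mean of 0.66 or 1.58-fold (adjusted p = 3.13e-16). A second probe well above background in both channels of all arrays gave -0.04, so the rise was seen at 1 of its 2 tested probes. Slc25a47, best known from liver, had -0.21 and -0.44 with AngII in Cy5 and -0.55 and -0.76 with AngII in Cy3, a mean of -0.49 or 1.41-fold lower (adjusted p = 8.41e-12). Slc25a45 rose by 0.31, with arrays from 0.18 to 0.42. Slc25a35, Slc25a43, Slc25a48 and Slc25a54 were too dim to test, and Slc25a34, Slc25a53 and the pseudogene Slc25a5-ps had no probe.

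Of the 13 members with a probe that were not tested, 9 were never well above background in either channel of any array. A ratio of a dim gene says little about its change, and none is given for these.

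**Figure D2:**
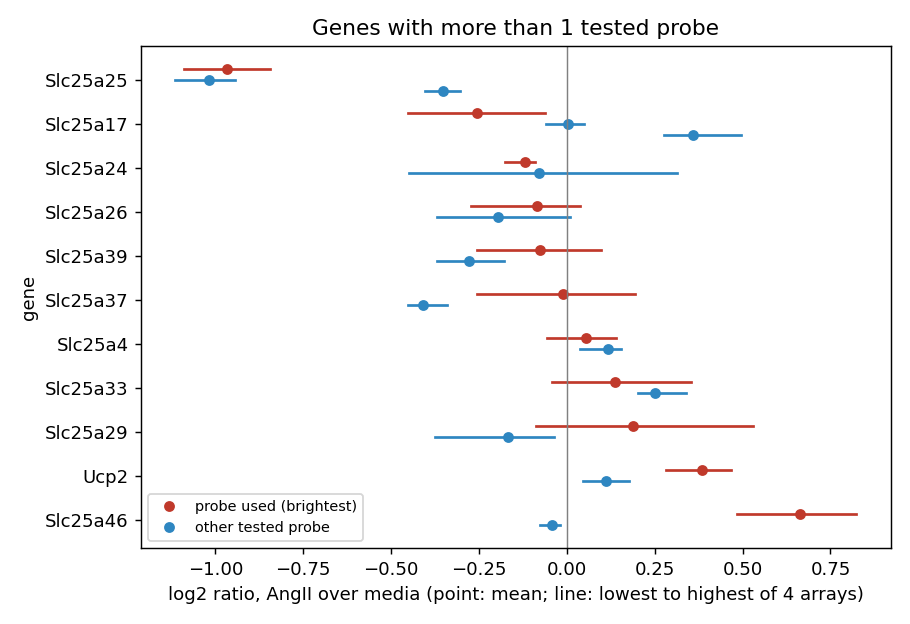
Log2 ratio of AngII over media (x axis) at each tested probe of the 11 carrier genes with more than 1 tested probe (y axis); points are means and lines run from the lowest to the highest of the 4 arrays. Slc25a46, Slc25a17 and Slc25a25 hold probes more than 1.5-fold apart, at 0.66 and -0.04 for Slc25a46.

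Many of these ratios differed between the dye orientations. The SD over all features of the dye contrast was 0.16, against 0.38 for AngII over media. Of the 33 carriers 24 (72.7%) had the same sign on all 4 arrays, against 59.1% of all features. Of these 13 were higher and 11 lower, with Ucp1, which passed the filter only through media, among the latter. For 9 carriers the mean sign differed between the orientations. In 21 carriers the range over the arrays was wider than the ratio itself. That range was 0.09 in Slc25a3 and 0.81 in Slc25a11. The counts of 9 and 21 have no share over all features beside them, so they do not set the carriers apart.

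**Figure D3:**
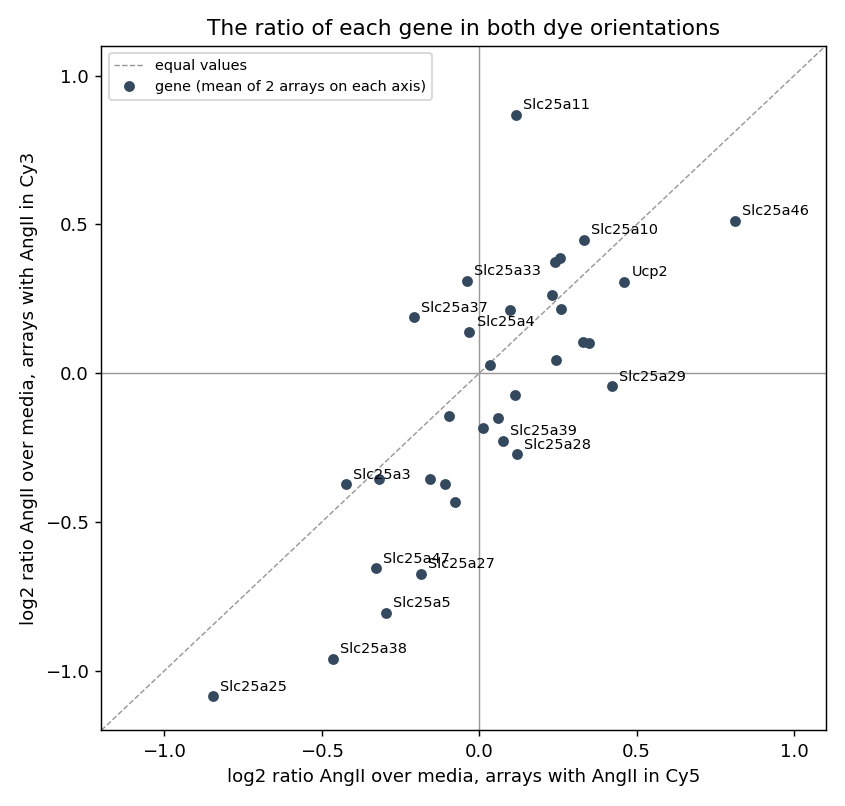
Mean log2 ratio of AngII over media on the arrays with AngII in Cy5 (x axis) and in Cy3 (y axis), 1 point for each of the 33 tested carriers; the dashed line marks equal values. Slc25a11 lies far above the line, at 0.12 and 0.87, and Slc25a5 below it, at -0.30 and -0.81.

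Genes that work with the carriers were read from 11 lists, each described by its counts, to be read against the 39.1% of all features called higher, the 38.1% called lower and the median of 0.00. The counts are calls of the main fit, which leaves out the difference between dye orientations, and calls with the block are not given. The mean sign differed between the orientations for 8 of 16 ATP synthase genes, 6 of 14 import genes and 6 of 18 amino acid partners. In the other lists it differed for 1 to 5 genes. Enzymes of carnitine and beta-oxidation, which handle what Slc25a20 imports, had 9 of 15 tested members higher and 4 lower (median 0.23). Acadm, the medium-chain dehydrogenase, rose by 0.59 and Cpt1a, the outer membrane carnitine transferase, by 0.55, while the short-chain dehydrogenase Acads fell by 0.78. Other inner membrane transporters had 10 of 16 higher and 2 lower (median 0.22), or a median of 0.07 with no filter on dim probes. Mtch2, an outer membrane relative of the carriers that the symbol rule leaves out, rose by 0.62, the calcium uniporter regulator Micu2 by 0.56 and the pyruvate carrier subunit Mpc1 by 0.52. Porins and energy transfer kinases had 7 of 11 higher and 3 lower (median 0.13), led by Ckmt1, the mitochondrial creatine kinase, at 1.77, then the outer membrane protein Tspo at 1.29 and the GTP-dependent adenylate kinase Ak3 at 0.45.

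Heme and iron-sulfur cluster synthesis, which draws on Slc25a38 and the mitoferrins, had 11 of 18 members higher and 2 lower (median 0.19). The iron-sulfur co-chaperone Hscb rose by 0.81 and the heme enzyme Alad by 0.53. In the glutathione list 6 of 11 rose and 3 fell (median 0.16, and 0.33 with AngII in Cy5 alone). The peroxiredoxin Prdx5 rose by 0.78 and glutathione reductase, Gsr, by 0.68, and Gclc, the catalytic subunit of the first step of glutathione synthesis, fell by 0.56. Amino acid partners had 11 of 18 higher and 4 lower (median 0.14, but -0.0048 with AngII in Cy5 alone), with the branched-chain transaminase Bcat1 at 0.78, ornithine aminotransferase, Oat, at 0.47 and Mthfd1l of the mitochondrial folate pathway at 0.48. Mthfd1l rested on 1 dye orientation, with -0.04 and 0.03 with AngII in Cy5 and 0.98 and 0.95 with AngII in Cy3.

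Enzymes of the malate-aspartate and glycerol phosphate shuttles did not move as a block, with 3 of 7 higher, 2 lower and a median of -0.01. The cytosolic transaminase Got1 rose by 0.50 and cytosolic malate dehydrogenase, Mdh1, by 0.33 (-0.05 to 0.63), while the mitochondrial transaminase Got2 fell by 0.28. Citrate export and fatty acid synthesis had 5 of 10 higher and 4 lower (median 0.05). The desaturases Scd2 and Scd1 rose by 0.64 and 0.44 (Scd1 by 0.80 and 0.83 with AngII in Cy5 but 0.07 and 0.04 with AngII in Cy3), and fatty acid synthase, Fasn, fell by 0.54 with arrays on both sides of 0. ATP synthase subunits, the users of the ADP/ATP and phosphate carriers, had 4 of 16 higher, 5 lower and 7 not called (median 0.03). Of the 16, 3 kept the same sign on all 4 arrays. The largest ratios were those of Atp5k at -0.67 (-1.21 to -0.10) and Atp5l at -0.39. Atp5l had 0.0014 and -0.0067 with AngII in Cy5 and -0.78 and -0.76 with AngII in Cy3. Dmac2l, listed under its older name Atp5s, had 0.32. The import machinery of the carriers had 7 of 14 higher and 2 lower (median 0.06, and 0.21 with AngII in Cy5 alone), with Timm22, the channel that inserts carriers into the inner membrane, at 0.39, the receptor Tomm20 at 0.32 and the chaperone Timm8b at 0.27. Of 12 regulators of mitochondrial biogenesis 4 rose and 5 fell (median 0.01). The coactivator Ppargc1a rose by 0.96, while Pprc1, its relative, fell by 0.68 and the transcription factor Nrf1 by 0.66.

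**Figure D4:**
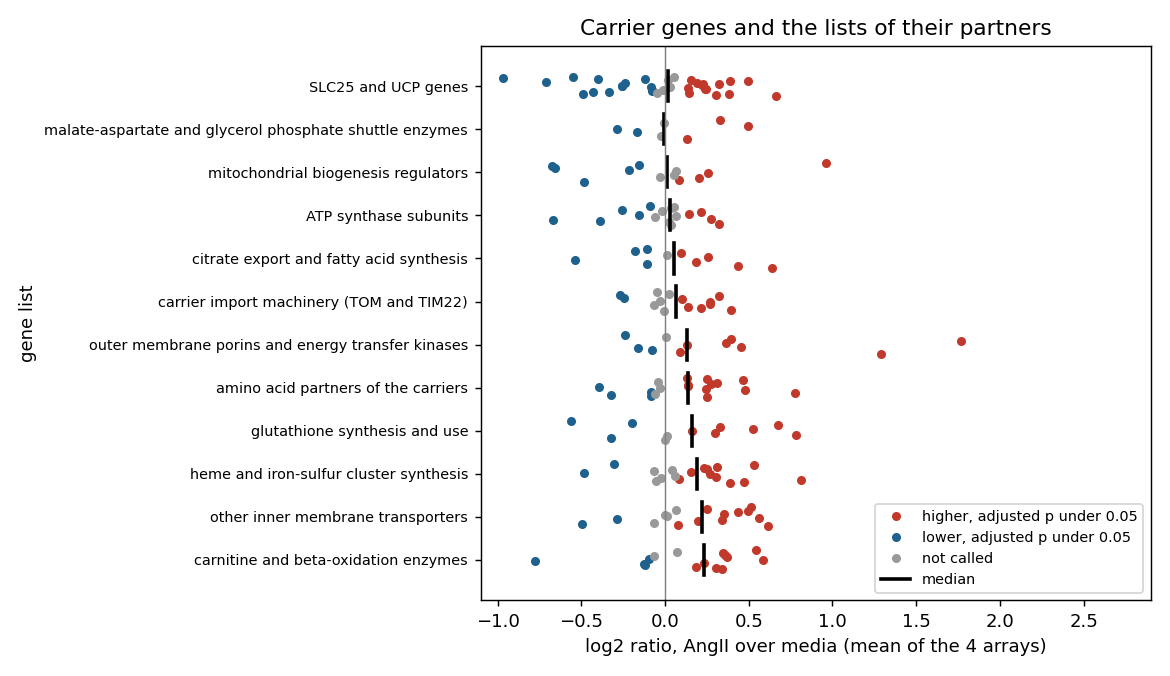
Log2 ratio of AngII over media (x axis, mean of the 4 arrays) of each tested gene in the carrier family and in the 11 partner lists (y axis); colours give the call and black bars the list medians. Medians run from -0.01 for the shuttle enzymes to 0.23 for carnitine and beta-oxidation, with the carriers at 0.02.

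Markers of the labelled tissue were present, and those of other kidney and blood cells were read as well. Their counts are to be read against the 39.1% of all features called higher and the 38.1% called lower. These are calls of the main fit, which leaves out the difference between dye orientations, and calls with the block are not given. In the ureteric epithelium list 11 of 12 markers were tested, with Ret never above background, and 6 rose, led by Wnt9b at 1.53 and Epcam at 0.73, and 3 fell. All 8 nephron progenitor and mesenchyme markers were above background, 3 higher and 5 lower, with Tmem100 at 0.77 and Meox1 at -0.60. The median of this list turned with the dye, from 0.11 and 0.13 with AngII in Cy5 to -0.48 and -0.46 with AngII in Cy3. The mean sign differed between the orientations for 2 of these 8 markers. It differed for 3 of 11 ureteric markers and for 5 of 10 stroma and smooth muscle markers. Stroma and smooth muscle markers had 5 of 10 higher and 3 lower (Acta2 at 1.69 and Cspg4 at 1.07), endothelial markers 1 of 7 higher and 5 lower (Sox18 and Plvap, at 0.49 and -0.49), and leukocyte markers 3 of 7 higher and 4 lower (Ptprc at 0.64, above background in 3 of 4 media channels, and Cd74 at 0.57). Skeletal muscle markers rose in 4 of 4 tested members, with Acta1 at 1.27 and Actc1 at 0.54. How far a changed cell makeup moved the carrier genes was not tested.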

How the data were processed

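Per the file headers, the scans of the 4 arrays, all on 1 slide, were quantified by Feature Extraction 10.5.1.1. The submitters' processing notes list limma and give no version of it. The deposited scanner intensity values used were median pixel signals of spots and of the background around them; processed intensity values, which the software had already corrected per the file headers, served an alternative. The log10 ratio deposited per spot is that of the processed signals and was not used further. The authors' deposited table holds a mean log2 intensity and log2 ratio per spot, with an adjusted p-value and a score for the call; its design is not given in the sources used here.

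In R 4.3.3 with limma 3.58.1, background was corrected by normexp (offset 50), loess was applied within arrays (controls at weight 0), spots with outlier flags were left out, and repeat spots were averaged. Ratios of arrays with AngII in Cy3 were turned. Both arrays of a number were averaged, and the means were tested against 0 with lmFit and eBayes, adjusted by Benjamini-Hochberg over all 14995 features. A probe was kept if well above background in 1 RNA on all 4 arrays, which 19393 were, and the brightest kept probe stood for its gene. Unversioned accessions were looked up among RefSeq genes (GRCm38.p6), naming 25097 of 41174 probes; the array's own build is mm9, so no array coordinates are given. The script's fit was checked on simulated ratios with known changes.

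Per-array values are given for carriers changed at least 1.5-fold, for the 12 largest ratios and for a set of genes fixed by name. Ucp1, although among the 12 largest ratios, is given as a bound instead. Of each partner list the 3 largest ratios are named and of each marker list the 2 largest. Other probes are given where they differ by more than 1.5-fold from the one used. Those of Slc25a4, Slc25a24, Slc25a29, Slc25a33, Slc25a37, Slc25a39 and Ucp2 were added after their values were seen. A carrier and a few list members are counted but not reported by name here. The carriers and lists were chosen with earlier results of these data known. The labels give each array the RNAs of 1 number, so each ratio is itself paired. Alternatives were no background correction, processed signals, median centring, no or a stricter filter, the mean of probes, the block, each dye orientation, each replicate left out and the authors' deposited table.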

Additional observations from a re-analysis of the deposited data

How the results depend on the processing

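Of the 33 carriers, 14 kept their sign and their call, or lack of one, under each of the 10 alternatives with a test that gave them a value. Of these 13 were called, among them Ucp1, whose call is no support for a fall. The same count over all features is not given, so the 14 do not set the carriers apart. With the replicate number as a block on the 4 arrays, the difference between dye orientations stays in the residual spread. In that setting 13 carriers were called, 7 higher and 6 lower, the latter with Ucp1, which passed the filter only through media. With AngII in Cy5 alone 9 carriers were called lower, Ucp1 among them. The share of all features called in that setting is not given. Medians there were 0.12 for di- and tricarboxylate carriers, 0.21 for import, 0.35 for other inner membrane transporters and 0.23 for porins and kinases. They were 0.0038 for citrate export, -0.0048 for amino acid partners and 0.33 for glutathione. In that setting Slc25a26 (0.013), Slc25a33 (-0.040), Slc25a28 (0.12) and Slc25a39 (0.076) changed sign, as did the uncalled Slc25a4 (-0.031) and Slc25a14 (0.059). With AngII in Cy3 alone 6 carriers differed at least 1.5-fold, and the medians of all carriers and of amino acid carriers were both -0.045 and that of porins 0.20. There Slc25a29 (-0.045) changed sign, as did Slc25a37 (0.19) and Slc25a23 (-0.074), both uncalled in the main fit. Processed signals gave 7 carriers past 1.5-fold and medians of 0.10 for all carriers, -0.25 for ATP-Mg/phosphate, 0.10 for nucleotide and cofactor, -0.024 for iron, 0.75 for unsettled substrates, -0.00085 for citrate export and 0.24 for heme. Median centring gave -0.18 for ATP-Mg/phosphate, 0.017 for iron, 0.21 for porins, 0.10 for ATP synthase, 0.31 for carnitine enzymes and 0.0091 for Slc25a39, whose sign turned. With no filter on dim probes the medians were -0.0023 for ADP/ATP, -0.12 for ATP-Mg/phosphate, 0.049 for unsettled substrates and 0.071 for other transporters. The mean of probes gave -0.25 for ATP-Mg/phosphate, -0.14 for iron, 0.089 for porins and 0.036 for Slc25a17, whose sign turned. No background correction gave 0.064 for nucleotide and cofactor carriers and 0.0059 for citrate export, and the stricter filter gave 0.093 for the latter. The authors' deposited table gave -0.059 for iron, 0.11 for porins and 0.0095 for citrate export. Leaving out 1 replicate gave 3 to 5 carriers past 1.5-fold and -0.021 to 0.017 for biogenesis regulators, with no test. The causes of these shifts were not tested. The 4 arrays and their dim probes limit the precision.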
